A study of Mus musculus with 11 samples.

Results

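The 35 genes described here encode the route from glucose uptake to the entry of pyruvate into the mitochondrion, and they were followed in naive extra-embryonic endoderm (nEnd) of the mouse, a stem cell culture of the lineage that forms the yolk sac endoderm. They were taken gene by gene from a written list of the pathway, not by a threshold on their values. The list holds 2 glucose transporters, 21 genes for the enzymatic steps from hexokinase to lactate dehydrogenase, 2 monocarboxylate transporters, 4 pyruvate dehydrogenase kinases, and the remaining genes of the pyruvate dehydrogenase complex and the mitochondrial pyruvate carrier. All 35 were among the 48952 genes of the bulk RNA-seq table and among the 32285 genes of the single-cell tables, and all 35 passed the filter on low counts that kept 14185 genes of the bulk table.

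Glucose enters a cell through transporters of the GLUT family and is trapped by hexokinase. Phosphofructokinase makes the committed step of glycolysis and is tuned by the bifunctional enzymes of the Pfkfb family, which make and remove its small-molecule activator. The lower steps end in pyruvate, which is either reduced to lactate by lactate dehydrogenase and exported by monocarboxylate transporters, or carried into the mitochondrion and oxidised by the pyruvate dehydrogenase complex, which the kinases Pdk1 to Pdk4 switch off. Several steps are served by alternative isoenzymes from separate genes, and pluripotent cells of the early embryo are known for switching between glycolytic and oxidative use of glucose.

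In the bulk experiment an OCT4-mCherry nEnd line, which reports the OCT4 protein encoded by Pou5f1, was grown on feeder cells in RACL medium without treatment and sorted into Pdgfra+ cells (the surface receptor PDGFRA and no reporter), DP cells (both) and Oct4+ cells (the reporter alone), with 3 libraries each. The single-cell experiment used an Oct4-LOF nEnd line (EPUc), in which 4-hydroxytamoxifen (4OHT) removes Oct4 function from both alleles. PDGFRA-sorted cells either received 4OHT at the start (+4OHT) or did not (-4OHT), each giving 1 library. By the study's account the drug was then withdrawn, and a longer stretch in plain RACL medium came before the cells were profiled. The +4OHT cells were thus not under the drug when they were sampled. Each experiment used 1 line, and the study calls the bulk libraries biological replicates without saying whether they came from separate cultures, so that the p-values below measure the spread between these libraries. Bulk levels are counts per 1000000 reads (CPM) scaled by TMM, a method that corrects for differences in composition, and differences are log2 fold changes with their standard errors (SE) from edgeR's quasi-likelihood test, adjusted over all 14185 genes and called at an adjusted p below 0.05.

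Bulk depth ran from 8019631 to 11642571 reads. Pou5f1 followed the sort, with 26.4, 8.37 and 17.6 CPM in the Pdgfra+ libraries, 131.9, 245.0 and 310.3 CPM in DP, and 1137, 944 and 861 CPM in Oct4+. The summed level of 12 endoderm markers lay between 60992 and 79772 CPM in Pdgfra+, between 39825 and 64871 CPM in DP and between 434 and 927 CPM in Oct4+, and that of 10 epiblast markers between 35.7 and 50.2, 257 and 517, and 3204 and 4535 CPM in the same order. Endoderm markers were thus strongly reduced in the Oct4+ libraries, though none was at 0 reads. Summed feeder markers lay between 15.3 and 188 CPM in all 9 libraries, most of it Fbn1 in Pdgfra+ and DP. Without Fbn1 the feeder markers summed to 2.20, 2.89 and 14.3 CPM in Pdgfra+, 4.61, 7.79 and 4.71 CPM in DP and 174.8, 46.1 and 19.5 CPM in Oct4+. Of 6 that could be tested, 4 (Col1a1, Col1a2, Thy1 and Mmp2) were called higher and 1 (Fbn1) lower in Oct4+ than in Pdgfra+, and 3 higher and 1 lower against DP. The part of these marker shifts in the results below was not tested, and in a bulk sample fewer cells of a type and less RNA per cell cannot be told apart.

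Across the sorted populations, few members separated DP from Pdgfra+ and most separated Oct4+ from both, in numbers near the shares of all genes. In DP against Pdgfra+, 2 of 35 members were higher (Pfkp and Pdk4) and 0 were lower by edgeR's test, with 9 members at an unadjusted p under 0.05 and with 4 higher and 1 lower by DESeq2. Of all genes 4.62% were called higher and 2.26% lower in this comparison, and 3.89% also had an absolute log2 fold change above 1.5, as both called members had. Libraries with the same replicate number deviated together in DP and Pdgfra+, and with the replicate number as a block 5 members were higher and 2 were lower. In Oct4+ against DP, 8 members were higher and 11 lower, against 27.9% and 28.3% of all genes, and 11 members were past the fold, against 27.7%. In Oct4+ against Pdgfra+, 12 were higher and 14 lower, against 31.8% and 31.5% of all genes, and 9 were past the fold, against 32%. The last 2 comparisons share the Oct4+ libraries. Without Oct4+ replicate 1, the library with the highest feeder markers, 8 members were higher and 15 lower than in DP, and 10 higher and 14 lower than in Pdgfra+. The median log2 fold change of the members was 0.05, -0.25 and -0.12 in the 3 comparisons, beside 0.02, 0.04 and 0.01 over all genes tested, so that the medians stayed near 0 and the values below concern which members moved.

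**Figure D1:**
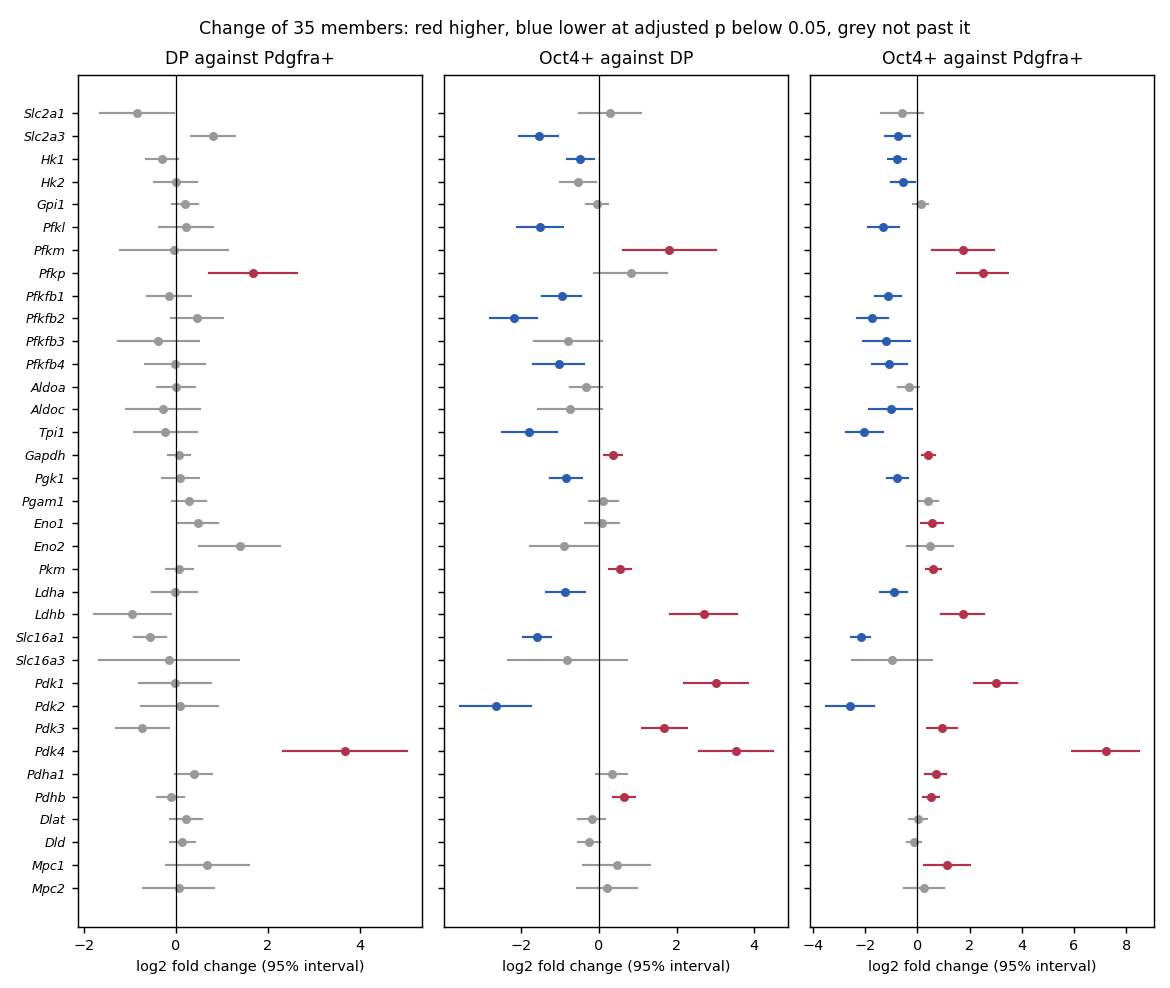
Log2 fold change of each of the 35 members in DP against Pdgfra+, Oct4+ against DP and Oct4+ against Pdgfra+ (horizontal axis), with genes by role on the vertical axis and bars for the 95% interval of edgeR's fit. Red points are called higher and blue points lower at an adjusted p below 0.05, and grey points are not called. Pdk1 and Pdk4 lie far to the right and Pdk2, Slc16a1, Tpi1 and Pfkfb2 far to the left in both comparisons with Oct4+, while most points of DP against Pdgfra+ lie near 0.

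Of the glucose transporters, Slc2a3, which encodes the high-affinity transporter GLUT3 (chromosome 6, 122727809 to 122801640, minus strand, GRCm38), had its highest level in DP. It stood at 1880, 1777 and 1166 CPM in Pdgfra+, at 2731, 3224 and 2468 CPM in DP and at 1200.5, 873 and 796 CPM in Oct4+. Every DP library lay above every other library, while Pdgfra+ and Oct4+ overlapped in 1 library each. Slc2a3 was 2.93-fold lower in Oct4+ than in DP (log2 fold change -1.55, SE 0.22, edgeR adjusted p = 0.000261), and its higher level in DP than in Pdgfra+ missed the threshold (0.80, SE 0.22, edgeR adjusted p = 0.0546) but passed with the replicate block (0.84, edgeR adjusted p = 0.0194). Its lower level in Oct4+ than in Pdgfra+ (-0.75, SE 0.22, edgeR adjusted p = 0.0123) was lost without Pdgfra+ replicate 1 (0.0572) and without scaling factors (0.0756). Slc2a1, which encodes the widely expressed transporter GLUT1, was at 381, 305 and 494 CPM in Pdgfra+, at 299, 120.25 and 231 CPM in DP and at 333, 304 and 151 CPM in Oct4+. All 3 DP libraries lay below the Pdgfra+ libraries, a difference of -0.86 (SE 0.36, edgeR adjusted p = 0.172) that was called with the replicate block (-0.91, edgeR adjusted p = 0.0266). In summed CPM per kilobase of exon, the pair came to 334 ± 33.2 (SD, n = 3) in Pdgfra+, 449 ± 38.0 in DP and 207 ± 54.0 in Oct4+.

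Of the first enzymes of the pathway, Hk1 was lower in Oct4+ while Gpi1 changed little. The hexokinases Hk1 and Hk2, which trap glucose as its phosphate, lay between 43.1 and 97.2 CPM and between 151 and 351 CPM over the 9 libraries. Hk1 was lower in Oct4+ than in Pdgfra+ (-0.78, edgeR adjusted p = 0.00168) and in Oct4+ than in DP (-0.48, edgeR adjusted p = 0.0261), the latter lost in 4 of 13 alternatives, of which 2 leave out DP replicate 1 (0.0775) or Oct4+ replicate 2 (0.0869). The call of Hk2 in Oct4+ against Pdgfra+ (-0.55, edgeR adjusted p = 0.0434) was lost in 10 of 13 alternatives. Gpi1, which encodes the isomerase that follows, was at 496, 451 and 458 CPM in Pdgfra+, 549.65, 479 and 579 CPM in DP and 515, 459 and 572 CPM in Oct4+. Its groups overlapped throughout, and its largest difference, DP over Pdgfra+, was 0.19 (edgeR adjusted p = 0.372).

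The 3 phosphofructokinase genes moved in opposite directions. Pfkl, the liver-type subunit, stood at 732, 522 and 625 CPM in Pdgfra+, at 762, 601 and 818 CPM in DP and at 327, 286 and 149 CPM in Oct4+. All Oct4+ libraries lay below the others, with a log2 fold change of -1.52 against DP (SE 0.27, edgeR adjusted p = 0.000950) and of -1.30 against Pdgfra+ (SE 0.27, edgeR adjusted p = 0.00182). Pfkm, the muscle-type subunit, was at 36.4, 16.4 and 47.3 CPM in Pdgfra+, at 43.5, 9.68 and 43.9 CPM in DP and at 73.9, 139.6 and 126.6 CPM in Oct4+. It was thus higher in every Oct4+ library than elsewhere, 3.50-fold over DP (1.81, SE 0.54, edgeR adjusted p = 0.0155) and by 1.76 over Pdgfra+ (SE 0.53, edgeR adjusted p = 0.0150), the latter at 0.0505 without Pdgfra+ replicate 2. Pfkp, the platelet-type subunit, was at 91.4, 29.6 and 32.9 CPM in Pdgfra+, at 176, 184 and 130.3 CPM in DP and at 431, 222 and 213 CPM in Oct4+, so that its 3 groups formed a staircase without overlap. The step from Pdgfra+ to DP was 3.19-fold (1.67, SE 0.43, edgeR adjusted p = 0.0481), the step from DP to Oct4+ missed the threshold (0.82, SE 0.42, edgeR adjusted p = 0.121), and Oct4+ was 5.64-fold above Pdgfra+ (2.50, SE 0.44, edgeR adjusted p = 0.000775). The call in DP was lost in 7 of 13 alternatives, among them the fits without Pdgfra+ replicate 2 (0.118), Pdgfra+ replicate 3 (0.1635), DP replicate 1 (0.0697), DP replicate 2 (0.142) and DP replicate 3 (0.0951), and was kept with the replicate block.

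The 4 Pfkfb genes, which set the level of the activator of phosphofructokinase, were at modest levels, each with its lowest mean in Oct4+. Pfkfb2 was at 25.5, 17.3 and 16.6 CPM in Pdgfra+, at 24.6, 26.2 and 31.1 CPM in DP and at 5.35, 4.63 and 7.98 CPM in Oct4+, and fell by 2.19 on the log2 scale from DP to Oct4+ (SE 0.27, edgeR adjusted p = 0.000109) and by 1.73 from Pdgfra+ (edgeR adjusted p = 0.000332). Pfkfb1 was at 16.1, 19.5 and 17.2 CPM in Pdgfra+, 15.7, 13.1 and 18.8 CPM in DP and 9.46, 7.69 and 7.20 CPM in Oct4+. Both genes had every Oct4+ library below all others, and for Pfkfb1 the differences were -0.96 against DP (edgeR adjusted p = 0.00429) and -1.11 against Pdgfra+ (edgeR adjusted p = 0.00150). Pfkfb3, which codes for the form with the strongest kinase activity, was at 39.8, 45.4 and 26.6 CPM in Pdgfra+, 39.3, 26.3 and 19.998 CPM in DP and 26.6, 13.7 and 8.76 CPM in Oct4+. DP overlapped both other groups, while the highest Oct4+ library (26.58 CPM) lay just under the lowest Pdgfra+ library (26.62 CPM). The Pfkfb3 call in Oct4+ against Pdgfra+ (-1.18, edgeR adjusted p = 0.0248) was lost in 5 of 13 alternatives, without scaling factors and without Pdgfra+ replicate 1 or 2 or Oct4+ replicate 2 or 3, at adjusted p between 0.0646 and 0.0733. Pfkfb4 was at 9.40, 11.5 and 13.05 CPM in Pdgfra+, 10.3, 14.8 and 8.10 CPM in DP and 5.58, 4.14 and 6.43 CPM in Oct4+, again with all Oct4+ libraries lowest. It was lower by -1.07 against Pdgfra+ (edgeR adjusted p = 0.0101) and by -1.04 against DP (edgeR adjusted p = 0.0137), the latter lost without DP replicate 2 (0.0533). Summed over the family, CPM per kilobase came to 14.4 ± 1.45 in Pdgfra+, 13.8 ± 0.74 in DP and 6.11 ± 1.42 in Oct4+ (SD, n = 3).

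In the middle of the pathway the triose phosphate isomerase gene Tpi1 stood out. It was at 826, 678 and 772 CPM in Pdgfra+, at 774, 513 and 644 CPM in DP and at 256, 209 and 92.9 CPM in Oct4+. Oct4+ lay below every other library, 4.08-fold below Pdgfra+ (-2.03, SE 0.32, edgeR adjusted p = 0.000362) and by -1.79 against DP (SE 0.32, edgeR adjusted p = 0.000949). Aldoa, the aldolase that produces its substrates, was at 1660.2, 1366 and 1478 CPM in Pdgfra+, 1688, 1245 and 1574 CPM in DP and 1519, 1000.6 and 1054 CPM in Oct4+, with overlapping groups and a difference of -0.33 against Pdgfra+ (edgeR adjusted p = 0.143). Its relative Aldoc was at 37.6, 18.9 and 41.2 CPM in Pdgfra+, 36.0, 14.2 and 30.3 CPM in DP and 18.1, 16.4 and 13.5 CPM in Oct4+. The Aldoc call in Oct4+ against Pdgfra+ (-1.02, edgeR adjusted p = 0.0326) was lost in 7 of 13 alternatives, without scaling factors, with the stricter filter and without Pdgfra+ replicate 1 or 3 or any 1 of the 3 Oct4+ replicates, at adjusted p between 0.0506 and 0.0988.

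The lower steps did not follow Tpi1. Pkm, which encodes the pyruvate kinase that closes the pathway, was at 1209, 1206 and 1082 CPM in Pdgfra+, at 1229.6, 1255 and 1192 CPM in DP and at 2022, 1799 and 1529 CPM in Oct4+. It was higher in every Oct4+ library than in any other, by 0.61 over Pdgfra+ (SE 0.13, edgeR adjusted p = 0.00239) and 0.54 over DP (SE 0.13, edgeR adjusted p = 0.00575). Gapdh, the glyceraldehyde phosphate dehydrogenase often used as a reference gene, lay between 841 and 923 CPM in Pdgfra+ and DP and between 1109 and 1214 CPM in Oct4+ (0.43 over Pdgfra+, edgeR adjusted p = 0.00563). Over DP the Gapdh difference of 0.36 (edgeR adjusted p = 0.0151) was lost in 5 of 13 alternatives, among them the fits with no filter on low counts (0.116), with only the 6 libraries compared (0.0504) and without DP replicate 2 (0.0544) or DP replicate 3 (0.0551). Pgk1, the first ATP-making step, moved the other way, from 186 to 255 CPM in Pdgfra+ and 183 to 282 CPM in DP to 121 to 149 CPM in Oct4+ (-0.86 against DP, edgeR adjusted p = 0.00296, and -0.76 against Pdgfra+, edgeR adjusted p = 0.00467). Within the lower pathway Gapdh and Pkm were therefore higher and Pgk1 lower in Oct4+.

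The mutase gene Pgam1 (49.6 to 90.1 CPM over the 9 libraries) was not called in any comparison of the main model, but its higher level in Oct4+ than in Pdgfra+ (0.41, edgeR adjusted p = 0.0533) was called in 6 of 13 alternatives, DESeq2 among them. The enolase genes Eno1 (375 to 799 CPM) and Eno2 (2.30 to 9.44 CPM) were not called in DP against Pdgfra+ (0.48, edgeR adjusted p = 0.161, and 1.38, edgeR adjusted p = 0.0654) but were called higher with the replicate block, by 0.48 (edgeR adjusted p = 0.0286) and 1.43 (edgeR adjusted p = 0.0377). Eno2 was also called higher when low counts were not filtered (edgeR adjusted p = 0.0363) and by DESeq2 (adjusted p = 0.0125). Eno1 was also called in Oct4+ over Pdgfra+ (0.56, edgeR adjusted p = 0.0281), a call lost without Pdgfra+ replicate 1 or 3 or Oct4+ replicate 1 or 3 at adjusted p between 0.0661 and 0.121. Its level is uncertain in a further way, since the near-identical copy Eno1b was listed with 647 to 1597 reads per library.

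At the lactate branch the isoenzymes separated. Ldha, whose product favours lactate formation, was at 1119, 992 and 991 CPM in Pdgfra+, at 1157, 886 and 984 CPM in DP and at 709, 593 and 354 CPM in Oct4+. Ldhb, the heart-type subunit that favours the return to pyruvate, was at 16.1, 20.8 and 40.9 CPM in Pdgfra+, at 16.7, 14.2 and 9.41 CPM in DP and at 83.0, 117.6 and 60.7 CPM in Oct4+. Every Oct4+ library was thus below all others for Ldha and above all others for Ldhb. Ldha differed by -0.87 between Oct4+ and DP (SE 0.23, edgeR adjusted p = 0.00807) and by -0.90 between Oct4+ and Pdgfra+ (SE 0.23, edgeR adjusted p = 0.00558). Ldhb was 6.48-fold higher in Oct4+ than in DP (2.70, SE 0.39, edgeR adjusted p = 0.000268) and differed by 1.74 from Pdgfra+ (SE 0.37, edgeR adjusted p = 0.00213).

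The lactate and pyruvate transporter gene Slc16a1, which encodes MCT1 (chromosome 3, 104638668 to 104658462, plus strand, GRCm38), gave the smallest adjusted p of the members in Oct4+ against Pdgfra+. It stood at 729.83, 851 and 775 CPM in Pdgfra+, at 635, 524 and 428 CPM in DP and at 195, 169 and 162 CPM in Oct4+, and the 3 groups did not overlap. Oct4+ was 4.48-fold below Pdgfra+ (-2.16, SE 0.17, edgeR adjusted p = 5.17e-06) and differed by -1.59 from DP (SE 0.16, edgeR adjusted p = 3.50e-05). DP against Pdgfra+ missed the threshold (-0.57, SE 0.16, edgeR adjusted p = 0.0591) and passed with the replicate block (-0.57, edgeR adjusted p = 0.0412). Slc16a3, which encodes the exporter MCT4, varied within groups, from 67.1 to 160.2 CPM in Pdgfra+, 47.4 to 165 CPM in DP and 10.6 to 100.1 CPM in Oct4+, and was called in no comparison.

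**Figure D2:**
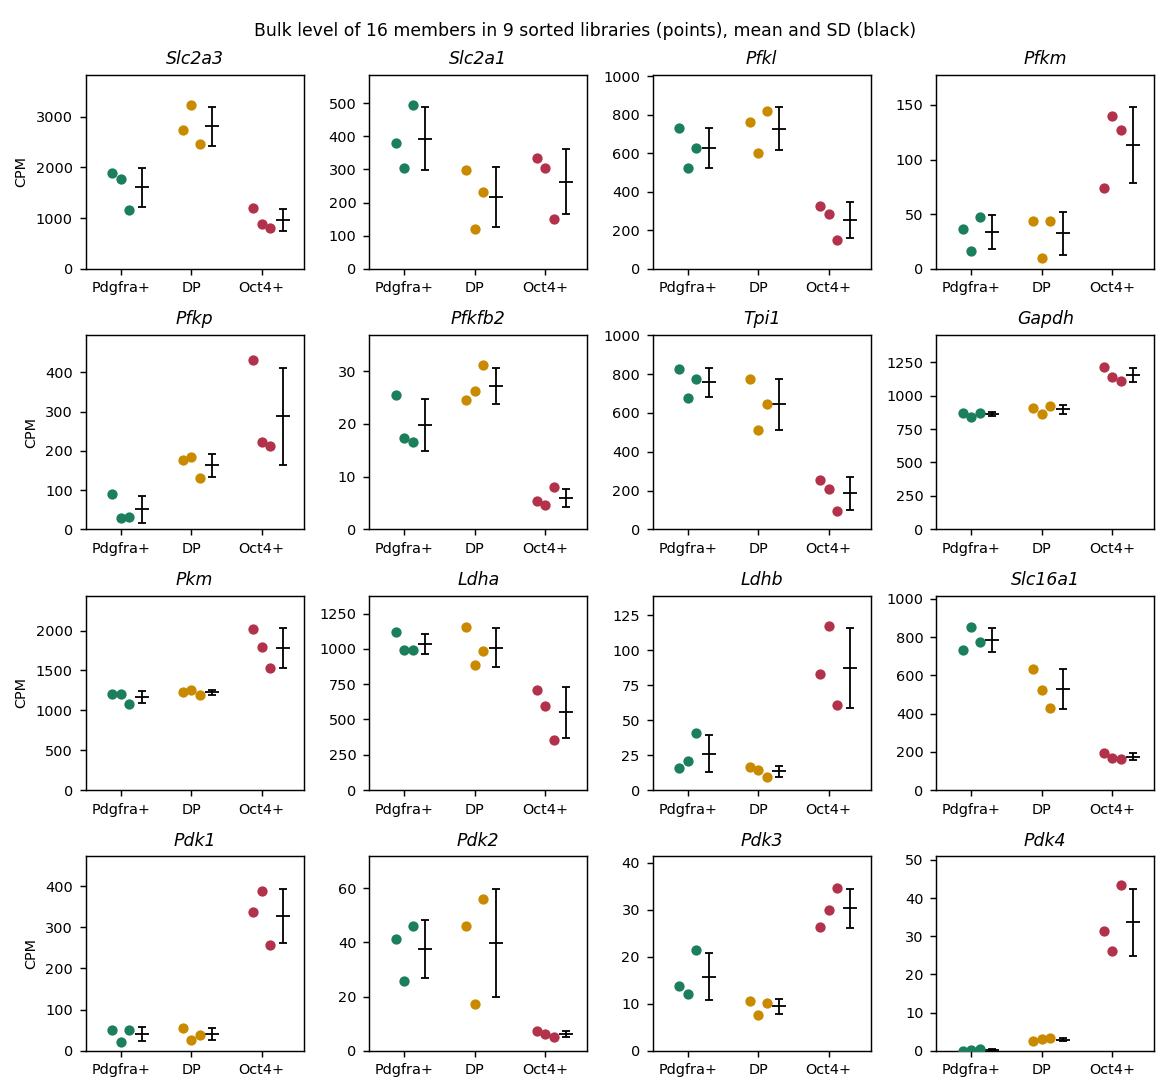
Level of 16 members in each of the 9 bulk libraries (vertical axis, TMM-scaled CPM, a separate scale for each gene) by sorted population, with points for libraries and bars for the mean and SD of 3. The 3 groups of Slc16a1 and of Pfkp are ordered without overlap, downward and upward from Pdgfra+ through DP to Oct4+, Slc2a3 is highest in DP, and Pdk1 and Pdk4 rise in Oct4+ where Pdk2 drops to between 5.21 and 7.36 CPM.

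The largest changes among the members were in the pyruvate dehydrogenase kinases. Pdk1 (chromosome 2, 71873224 to 71903858, plus strand, GRCm38) was at 49.4, 22.02 and 51.6 CPM in Pdgfra+, at 56.2, 25.5 and 39.3 CPM in DP and at 337, 388 and 258 CPM in Oct4+. All Oct4+ libraries lay far above the others, 8.12-fold over DP (3.02, SE 0.37, edgeR adjusted p = 9.82e-05) and almost as far over Pdgfra+ (3.00, SE 0.37, edgeR adjusted p = 7.47e-05). Pdk2 (chromosome 11, 95026258 to 95041354, minus strand, GRCm38) did the reverse, with 41.1, 25.7 and 46.0 CPM in Pdgfra+, 46.0, 17.3 and 55.9 CPM in DP and 7.36, 6.21 and 5.21 CPM in Oct4+. It was 5.97-fold lower in Oct4+ than in Pdgfra+ (-2.58, SE 0.41, edgeR adjusted p = 0.000393) and differed by -2.66 from DP (SE 0.41, edgeR adjusted p = 0.000431), again without overlap. Pdk3 was at 13.8, 12.1 and 21.4 CPM in Pdgfra+, 10.6, 7.55 and 10.2 CPM in DP and 26.3, 29.97 and 34.6 CPM in Oct4+, each group apart from the next. It was higher in Oct4+ by 1.68 over DP (SE 0.26, edgeR adjusted p = 0.000431) and by 0.94 over Pdgfra+ (SE 0.25, edgeR adjusted p = 0.00817).

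Pdk4 (chromosome 6, 5483351 to 5496309, minus strand, GRCm38), the kinase known for fasting and lipid use, was all but silent in Pdgfra+, with 0, 1 and 5 reads, against 20, 25 and 25 reads in DP and 403, 266 and 391 reads in Oct4+. In CPM this came to 0, 0.0996 and 0.522 in Pdgfra+, 2.49, 2.95 and 3.27 in DP and 31.2, 26.2 and 43.3 in Oct4+, again a staircase without overlap. Oct4+ was 11.5-fold above DP (3.53, SE 0.43, edgeR adjusted p = 9.67e-05). The fitted difference of DP from Pdgfra+ was 3.68 (SE 0.61, edgeR adjusted p = 0.0159) and that of Oct4+ from Pdgfra+ 7.20 (SE 0.57, edgeR adjusted p = 6.18e-06), values that rest on the few reads in Pdgfra+ and on the prior count of the fit. The call in DP was lost without Pdgfra+ replicate 2 (0.0520) and without DP replicate 3 (0.0508). All 10 epiblast markers were also called higher in DP than in Pdgfra+, and 0 of the 12 endoderm markers were called by edgeR (0 at an unadjusted p under 0.05) or by DESeq2. Feeder cells of the single-cell libraries had Pdk4 at 19.7 and 52.6 per 1000000 UMIs, and of the Oct4+ libraries, replicate 1 had the highest feeder markers and replicate 3 the highest Pdk4. Without Oct4+ replicate 1, both Pdk4 calls of Oct4+ were kept, but replicates 2 and 3 still had feeder markers other than Fbn1 at 46.1 and 19.5 CPM. The part of feeder cells in the Oct4+ values of Pdk4 was not tested. Whether Oct4+ transcripts or cells in the DP sort have a part in the DP values of Pdk4 and Pfkp was not tested.

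The substrate of these kinases was more even. Pdha1, the catalytic subunit of pyruvate dehydrogenase, was at 256, 282 and 219 CPM in Pdgfra+, 280.1, 392 and 314 CPM in DP and 437, 326 and 473 CPM in Oct4+, with Oct4+ above Pdgfra+ in every library (0.71, SE 0.18, edgeR adjusted p = 0.00638) and overlapping DP (0.33, edgeR adjusted p = 0.149). Its partner Pdhb lay between 72.0 and 93.1 CPM in Pdgfra+ and DP and between 107 and 123 CPM in Oct4+ (0.53 over Pdgfra+, edgeR adjusted p = 0.00537, and 0.64 over DP, edgeR adjusted p = 0.00214). The remaining subunits of the complex, Dlat and Dld, lay between 58.6 and 91.6 CPM and between 84.8 and 113 CPM and were called in no comparison. Of the mitochondrial pyruvate carrier, Mpc1 was at 1.59, 1.99 and 2.19 CPM in Pdgfra+, 1.99, 3.89 and 3.40 CPM in DP and 4.34, 2.76 and 5.65 CPM in Oct4+, and Mpc2 at 11.8, 21.3 and 21.6, at 14.5, 20.8 and 21.7 and at 15.2, 17.2 and 33.6 CPM. Both overlapped between DP and Oct4+, and the Mpc1 call in Oct4+ over Pdgfra+ (1.13, SE 0.40, edgeR adjusted p = 0.0298) was lost in 7 of its 12 alternatives, among them the fits with no filter on low counts, without any 1 of the Pdgfra+ replicates and without Oct4+ replicate 1 or 3, at adjusted p between 0.0576 and 0.101.

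Because the isoenzymes of a step moved apart, their balance was read within each library as a log2 ratio, which does not depend on the scaling of libraries. The ratio is of read counts and is not divided by gene length, so that only its change between groups is read. With 3 libraries against 3, the exact two-sided permutation test cannot go below p = 0.1, which is what it gives wherever the groups do not overlap, and 27 such relations were computed. The ratio of Pfkp to Pfkl was -3.80 ± 0.69 in Pdgfra+, -2.16 ± 0.47 in DP and 0.18 ± 0.48 in Oct4+ (SD, n = 3), and that of Ldhb to Ldha was -5.43 ± 0.77, -6.26 ± 0.39 and -2.66 ± 0.39. The ratio of Slc2a3 to Slc2a1 was 2.03 ± 0.69, 3.78 ± 0.84 and 1.92 ± 0.44, with its peak in DP. Expressed as shares of the family's CPM per kilobase, Pfkl made up 87.6% ± 3.59 of phosphofructokinase transcripts in Pdgfra+, 83.4% ± 1.73 in DP and 39.7% ± 9.30 in Oct4+. Ldhb made up 5.07% ± 2.63 of lactate dehydrogenase in Pdgfra+, 2.73% ± 0.67 in DP and 25.3% ± 4.96 in Oct4+. Among the kinases Pdk2 led in Pdgfra+ (51.1% ± 1.86) and DP (54.1% ± 10.1) but came to 3.02% ± 0.49 in Oct4+, where Pdk1 made up 63.9% ± 8.19. Aldolase and enolase kept 1 dominant gene throughout, with Aldoa at mean shares between 98.1% and 98.8% and Eno1 between 98.4% and 99.2%. For hexokinase this depended on the relative Hkdc1, which is no member. Between Hk1 and Hk2, Hk2 took mean shares of 83.7%, 86.2% and 85.3% in Pdgfra+, DP and Oct4+, but with Hkdc1 counted its shares were 48.9% ± 4.59, 52.6% ± 12.9 and 83.7% ± 3.99, beside 41.6% ± 5.23, 39.1% ± 13.8 and 1.86% ± 2.42 for Hkdc1. Summed kinase transcripts came to 23.4 ± 7.10 CPM per kilobase in Pdgfra+, 22.3 ± 8.44 in DP and 65.5 ± 5.21 in Oct4+.

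**Figure D3:**
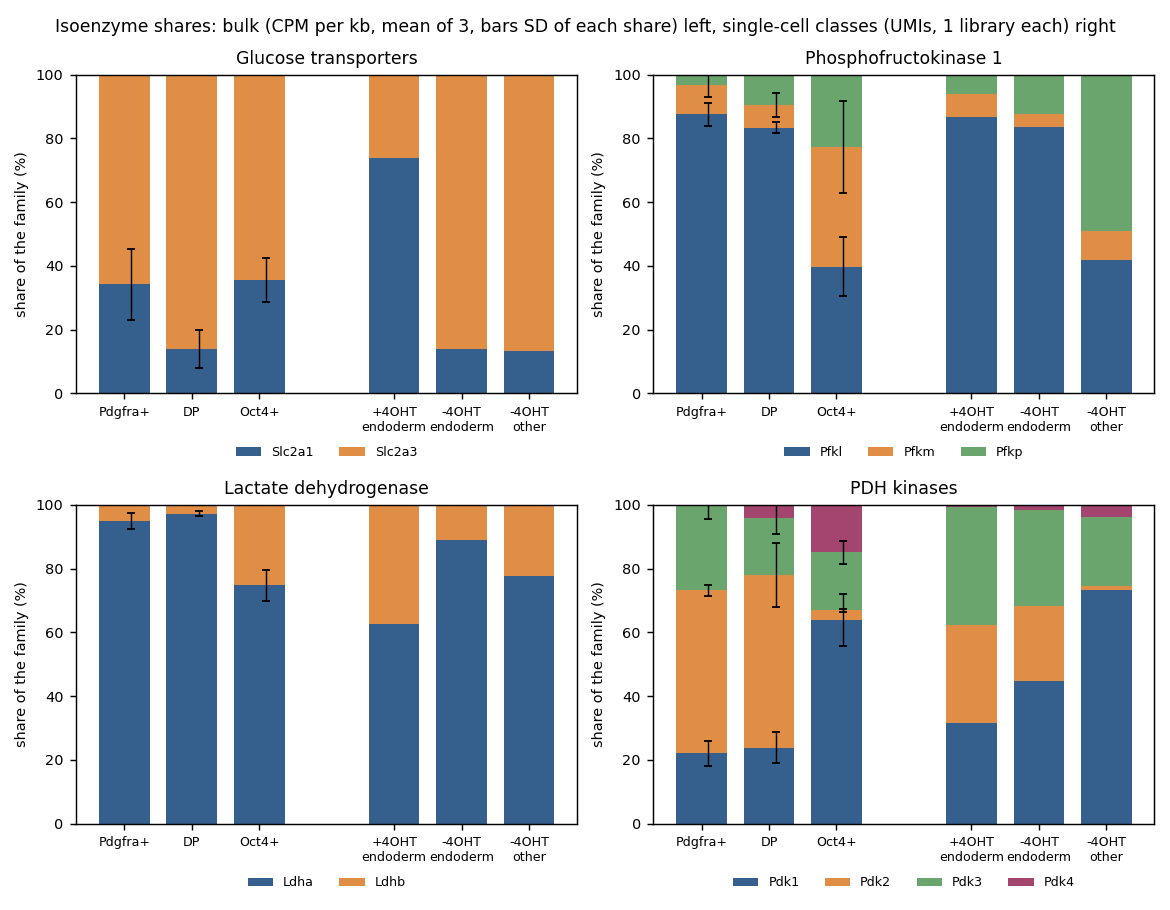
Share of each isoenzyme in its family (vertical axis, percent), as stacked bars for glucose transporters, phosphofructokinase, lactate dehydrogenase and the kinases. The left bars are the mean of 3 bulk libraries in CPM per kilobase, with the SD of each share at the top of its segment except the uppermost, and the right bars are shares of summed UMIs in 3 single-cell classes described further on, 1 library each. In the bulk bars Pfkl and Pdk2 lead in Pdgfra+ and DP, while Pfkm and Pfkp together and Pdk1 lead in Oct4+.

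Genes next to the pathway were taken from further lists. Beside their counts, 4.62% of all genes were called higher and 2.26% lower in DP against Pdgfra+. These shares were 27.9% and 28.3% in Oct4+ against DP, and 31.8% and 31.5% in Oct4+ against Pdgfra+. Of 22 relatives and partners of the members, 2 were higher and 0 lower in DP than in Pdgfra+ by edgeR (4 at an unadjusted p under 0.05, and 4 higher and 0 lower by DESeq2), 8 and 3 in Oct4+ against DP, and 10 and 3 in Oct4+ against Pdgfra+. Among them Bsg, the chaperone that brings MCT1 and MCT4 to the membrane, was at 1472, 1166 and 1334 CPM in Pdgfra+, 1248, 1018 and 1186 CPM in DP and 388, 374 and 437 CPM in Oct4+, with Oct4+ apart from both (-1.73 against Pdgfra+, edgeR adjusted p = 7.55e-06). Hkdc1, a hexokinase relative, was at 241, 192 and 280.5 CPM in Pdgfra+, 231, 110.5 and 306 CPM in DP and 1.47, 7.59 and 0.887 CPM in Oct4+ (-6.17, edgeR adjusted p = 4.08e-05). Both thus fell with the endoderm markers. Pgam2, the muscle-type mutase, was called higher in DP than in Pdgfra+ (3.99, edgeR adjusted p = 0.0104), at 1.46, 0.199 and 1.15 CPM in Pdgfra+ and 9.47, 17.8 and 17.3 CPM in DP, beside 2.87, 2.17 and 3.66 CPM in Oct4+. Fbp2, a fructose bisphosphatase of gluconeogenesis, was at 5.13, 2.59 and 1.98 CPM in Pdgfra+, at 20.4, 37.9 and 48.9 CPM in DP and at 7.21, 6.11 and 18.1 CPM in Oct4+ (3.48 in DP over Pdgfra+, edgeR adjusted p = 0.0125). For Pgam2 and Fbp2, as for Slc2a3, every DP library lay above every library of the other populations.

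Of 8 pentose phosphate genes, 0 were higher and 5 lower in Oct4+ against either population, led by Rpia, the ribose phosphate isomerase (-1.67 against Pdgfra+, edgeR adjusted p = 1.12e-05), and 0 were called in DP against Pdgfra+ by edgeR (1 at an unadjusted p under 0.05) or by DESeq2. Of 13 genes of gluconeogenesis and glycogen, 2 were higher and 1 lower in DP than in Pdgfra+, 4 and 5 in Oct4+ against DP, and 5 and 5 in Oct4+ against Pdgfra+, where G6pc3, a glucose phosphatase, differed by -2.54 (edgeR adjusted p = 4.76e-06). Of 16 genes of the tricarboxylic acid cycle, 0 were called in DP against Pdgfra+ by edgeR (3 at an unadjusted p under 0.05, and 1 higher by DESeq2), 3 were higher and 2 lower in Oct4+ against DP, and 5 and 2 in Oct4+ against Pdgfra+. Of 19 hypoxia and glycolysis regulators, 0 were higher and 1 lower in DP than in Pdgfra+, 2 and 8 in Oct4+ against DP, and 2 and 10 in Oct4+ against Pdgfra+. Epas1, which encodes the hypoxia factor HIF2A, stepped down from 1180.1, 1024 and 1971 CPM in Pdgfra+ to 639, 167 and 363 CPM in DP and 56.6, 32.9 and 23.5 CPM in Oct4+ (-1.84 in DP against Pdgfra+, edgeR adjusted p = 0.0481, and -5.20 in Oct4+ against Pdgfra+, edgeR adjusted p = 3.27e-05). P4ha1, a collagen prolyl hydroxylase and known hypoxia target, was at 1250.4, 804 and 935 CPM, at 1043, 430 and 579 CPM and at 42.9, 43.6 and 27.8 CPM in the same order (-4.71 in Oct4+ against Pdgfra+, edgeR adjusted p = 5.74e-06).

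The single-cell libraries asked what the same genes did in nEnd with and without Oct4. They held 6896 (-4OHT) and 7283 (+4OHT) barcodes, 21 of which were shared between them, and 5324 and 6299 were kept with at least 1000 genes and at most 10% mitochondrial UMIs (molecules counted once). Cells were classed as endoderm by the basement membrane genes Sparc, Col4a1 and Col4a2 (at least 3000 CPM together, here of UMIs and without TMM scaling), as feeder fibroblasts by Col1a1, Col1a2 and Col3a1 (at least 50 UMIs together), and otherwise as other. The -4OHT library held 1372 endoderm, 11 feeder and 3941 other cells (25.8% endoderm), and the +4OHT library 6070, 24 and 205 (96.4% endoderm). Although both cultures were started from PDGFRA-sorted cells, most -4OHT cells were outside the endoderm class. The other cells of the -4OHT library carried a UMI of the epiblast gene Nanog in 81.7% of cells, against 14.5% of the endoderm cells, at median depths of 18777 and 15314 UMIs, and 0.231% of the +4OHT endoderm cells did so at 12623 UMIs. Pou5f1 was at 15.9 CPM in -4OHT endoderm and 1.94 CPM in +4OHT endoderm, and whether the counted ends of its transcripts lie in the deleted stretch is not given in the sources used here. With 1 library per condition there is no test between conditions, and the ratios below carry exact 95% intervals for counting error only.

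In endoderm cells, the +4OHT library had lower levels along most of the glycolytic trunk and of the GLUT3 transporter. Of 24 members with at least 20 CPM in 1 library, 3 were at least 1.5-fold higher and 12 at least 1.5-fold lower, against 21.8% and 9.03% of all genes. The median ratio of the members was 0.646, beside 1.10 over all genes. Slc2a3 showed the largest difference, from 637 CPM in -4OHT to 56.4 CPM in +4OHT, an 11.3-fold lower level (ratio 0.0886, 0.0857 to 0.0915). In the other direction Slc2a1 was at 102 and 158 CPM (ratio 1.55, 1.48 to 1.62), so that the share of Slc2a3 in the pair was 86.2% in -4OHT and 26.3% in +4OHT endoderm. The Slc2a1 ratio went under 1.5 in 5 alternatives and that of Ldhb in 3, while the 12 lower members and Hk1 stayed past 1.5 in every alternative tried.

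Among the enzymes, Ldha was at 525 and 176 CPM in -4OHT and +4OHT endoderm (2.98-fold lower), Pgk1 at 389 and 155 CPM (2.51-fold lower) and the MCT4 gene Slc16a3 at 57.7 and 15.8 CPM (3.65-fold lower). Pfkp (26.7 and 6.39 CPM, ratio 0.240), Pgam1 (459.98 and 185 CPM, ratio 0.401), Pkm (605 and 249 CPM, ratio 0.413) and Pfkl (182 and 90.4 CPM, ratio 0.498) were also lower by more than 1.5-fold. The same held for Tpi1 (651 and 349.79 CPM, ratio 0.537), Eno1 (404 and 224 CPM, ratio 0.554), Aldoa (659 and 384 CPM, ratio 0.583) and Gapdh (2467 and 1483 CPM, ratio 0.601). Every member at 20 CPM or more in 1 library for the steps from phosphofructokinase to pyruvate kinase was therefore among the lower. Gpi1, at 246 and 170 CPM (ratio 0.691), went the same way without passing the fold. The higher members besides Slc2a1 were Hk1 (12.9 and 22.2 CPM, ratio 1.73, 1.53 to 1.95) and Ldhb (64.4 and 105.5 CPM, ratio 1.64, 1.55 to 1.73), and Ldhb made up 10.9% of lactate dehydrogenase UMIs in -4OHT and 37.5% in +4OHT endoderm. Pfkp and Slc16a3 reached 20 CPM only in -4OHT, and Hk1 only in +4OHT. Under 20 CPM in both, trunk and Pfkfb genes went both ways. Eno2 (5.53 and 9.47 CPM, ratio 1.71), Pfkfb3 (ratio 2.35), Pfkfb4 (1.63) and Pfkfb1 (1.13) were higher. Aldoc (ratio 0.767), Pfkm (0.840) and Pfkfb2 (0.846) were lower.

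The genes of pyruvate entry into the mitochondrion did not take part. Pdha1, Pdhb, Dlat, Dld, Mpc1 and Mpc2 had ratios between 0.820 and 1.29, Hk2 1.17 and Slc16a1 0.839. The 4 kinases were below 20 CPM in both endoderm classes, with ratios of 0.676 for Pdk1, 1.26 for Pdk2 and 1.18 for Pdk3, and with 13 UMIs in -4OHT and 21 in +4OHT for Pdk4. Transcripts of the other class in the -4OHT library could be free in its droplets. Of the members lower in +4OHT endoderm, this class had Slc2a3 at 583 CPM, Ldha at 469, Pgk1 at 317, Pfkl at 89.8 and Tpi1 at 312.5. Aldoa was at 658, Eno1 at 357 and Slc16a3 at 35.7 CPM, and none of these was above the level in the -4OHT endoderm cells. Above it were Gapdh at 3255, Pkm at 897, Pgam1 at 586 and Pfkp at 106 CPM. The part of free transcripts in the endoderm values was not tested. In the 1038 -4OHT and 6019 +4OHT endoderm cells without a Nanog or Sox2 UMI, 13 members were past the fold.

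**Figure D4:**
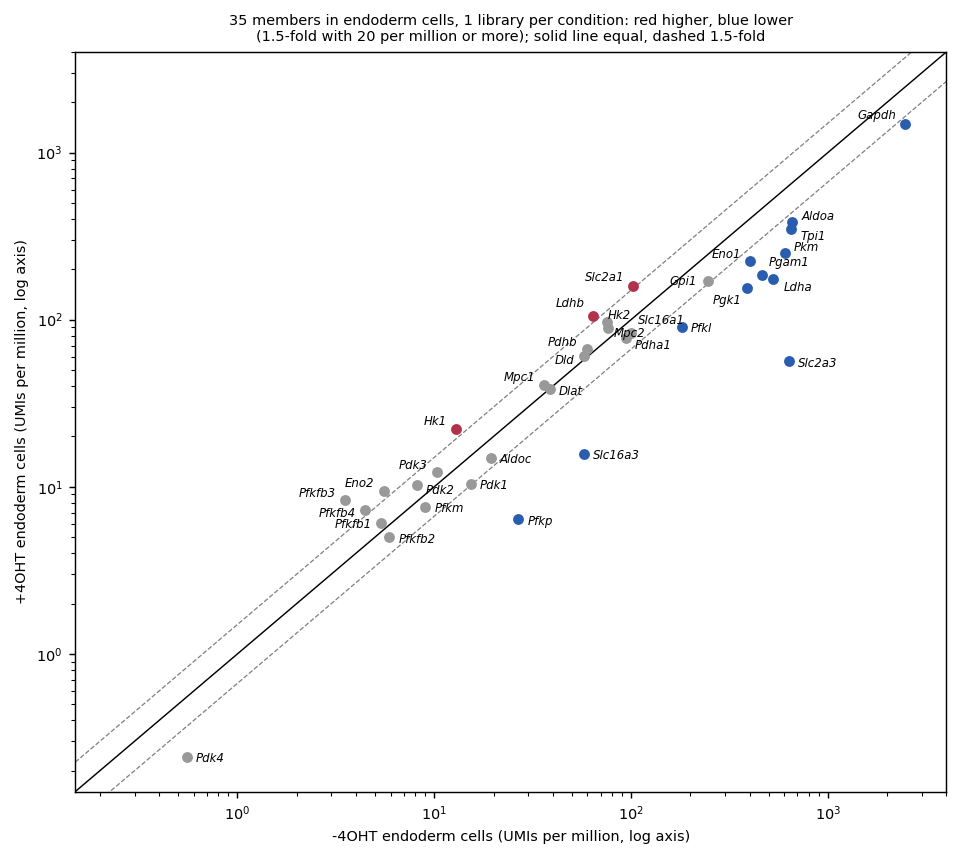
Level of the 35 members in endoderm cells of the -4OHT library (horizontal axis) and of the +4OHT library (vertical axis), both in CPM of summed UMIs on log axes, with the line of equality and dashed lines at 1.5-fold. Red points are higher and blue points lower past the fold with at least 20 CPM. Slc2a3 lies farthest below the line, and the blue points form a band of trunk enzymes from Pfkp to Gapdh.

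Promoters of the members were read for the letters ACGTG on either strand (CACGT on the other), the core to which hypoxia-inducible factors are known to bind. A CACGTG match counts on both strands. In RefSeq windows of 300 bases (GRCm38.p6, 250 before to 50 after the start), 34 of 35 members were matched, Slc2a3 being the exception, and 18 of 34 genes (52.9%) held the letters in at least 1 window, against 5886 of 27025 genes (21.8%). By window these were 22 of 54 (40.7%) against 6447 of 32851 (19.6%). Of the members lower in +4OHT endoderm 7 of 11 matched genes (63.6%) held them. A match is a description of the letters and not a site of binding. The 250 bases before the start of 4 of these genes are shown, with the matches in capitals, since they are the trunk and export genes with the lowest ratios that hold a match. Each is on the plus strand, at chr7:46845554-46845803 for Ldha, chrX:106186850-106187099 for Pgk1, chr11:120948817-120949066 for Slc16a3 and chr19:41911621-41911870 for Pgam1.
Ldha: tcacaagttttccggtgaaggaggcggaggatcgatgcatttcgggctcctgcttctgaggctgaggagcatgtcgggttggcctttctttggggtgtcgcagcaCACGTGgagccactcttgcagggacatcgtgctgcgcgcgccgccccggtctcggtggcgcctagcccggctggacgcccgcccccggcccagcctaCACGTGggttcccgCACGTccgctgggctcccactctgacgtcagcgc
Pgk1: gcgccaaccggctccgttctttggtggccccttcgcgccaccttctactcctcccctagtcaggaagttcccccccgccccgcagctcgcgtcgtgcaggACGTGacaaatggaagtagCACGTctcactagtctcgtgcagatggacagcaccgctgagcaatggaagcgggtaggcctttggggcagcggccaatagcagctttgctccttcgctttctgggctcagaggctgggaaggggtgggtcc
Slc16a3: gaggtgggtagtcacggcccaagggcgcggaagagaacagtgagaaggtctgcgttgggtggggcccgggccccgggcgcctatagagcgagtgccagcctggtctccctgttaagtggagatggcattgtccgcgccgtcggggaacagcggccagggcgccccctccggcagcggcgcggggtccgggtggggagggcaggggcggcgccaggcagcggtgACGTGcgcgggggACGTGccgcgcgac
Pgam1: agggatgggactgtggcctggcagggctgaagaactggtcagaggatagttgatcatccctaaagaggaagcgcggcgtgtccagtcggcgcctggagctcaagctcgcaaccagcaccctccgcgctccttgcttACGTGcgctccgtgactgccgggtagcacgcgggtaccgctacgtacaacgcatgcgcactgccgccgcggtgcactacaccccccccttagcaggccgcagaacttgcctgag
Counted on both strands, Ldha held 5 matches, Pgk1 and Slc16a3 2 each and Pgam1 1. Of the 14 hypoxia and glycolysis regulators at 20 CPM or more, 4 were at least 1.5-fold higher and 1 lower in +4OHT endoderm. Of all genes 21.8% were higher and 9.03% lower, so that these counts were near the shares of all genes. Among the higher were Epas1 at 113 and 388 CPM (ratio 3.42) and Hif1a (ratio 1.53), and the lower one was Txnip (ratio 0.576), an inhibitor of glucose uptake. Of the relatives, Emb, a chaperone of monocarboxylate transporters, was at 146 and 13.1 CPM (ratio 0.0899) and Tigar, a phosphatase that lowers the activator of phosphofructokinase, at 74.5 and 11.6 CPM (ratio 0.156). Of 16 genes of the tricarboxylic acid cycle, 0 were higher and 1 was lower (Idh3a, ratio 0.657), beside the same shares of all genes.

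Per cell, the lower level in +4OHT endoderm was spread over the class. The sum read for this comes from the same libraries, with most of the members found lower above and none of those found higher. Its lower median therefore follows from the ratios above, and only the spread over cells is added. The 14 trunk genes from Gpi1 to Ldha took a median of 31 of 5000 thinned UMIs in 1348 endoderm cells of the -4OHT library (quartiles 24 and 40) and 16 in 5994 endoderm cells of the +4OHT library (quartiles 11 and 21). The 3874 other cells of the -4OHT library had a median of 34 (quartiles 28 and 41), and 171 other cells of the +4OHT library had a median of 17. The lower quartile of -4OHT endoderm thus lay above the upper quartile of +4OHT endoderm, and the other cells of the +4OHT library were about as low as its endoderm. Feeder cells had a median of 22 in 11 cells of the -4OHT library and of 12.5 in 24 cells of the +4OHT library. The lower median in +4OHT was therefore found in every class and was not particular to endoderm. With 1 library per condition, condition and library cannot be told apart.

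**Figure D5:**
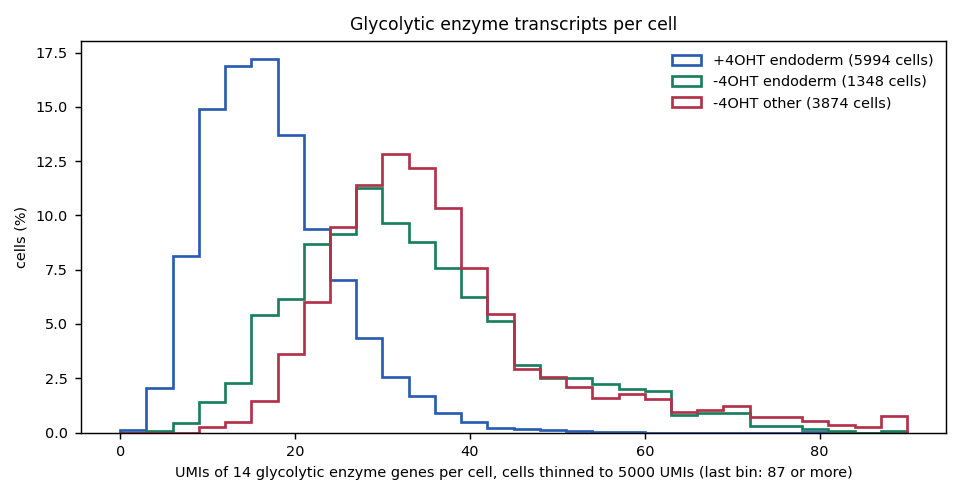
Distribution over cells of the summed UMIs of 14 trunk genes after thinning to 5000 UMIs (horizontal axis, UMIs per cell), as the percent of cells of each class (vertical axis), for endoderm cells of both libraries and other cells of the -4OHT library. The last bin holds all cells above its start. The +4OHT endoderm curve, with a median of 16, lies to the left of the -4OHT endoderm curve, with a median of 31.

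The -4OHT library also allowed its other cells to be set against its endoderm cells, which share a culture and a droplet run. The endoderm class was cut on basement membrane genes, so that none of the members took part in the split. Of 25 members with at least 20 CPM, 4 were at least 1.5-fold higher in the other cells and 4 at least 1.5-fold lower, against 17.5% and 27.9% of all genes, with a median ratio of 0.964 beside 0.977 over all genes. Higher were Pfkp (26.7 CPM in endoderm and 106 in other cells, ratio 3.96), Pdk1 (15.4 and 73.1 CPM, ratio 4.75), Ldhb (64.4 and 134 CPM, ratio 2.09) and Pdk3 (10.3 and 21.7 CPM, ratio 2.10). Of these, Pdk1 and Pdk3 reached 20 CPM only in the other cells, so that they were counted only through the class where they were high. Lower were Tpi1 (ratio 0.480), Pfkl (0.494), Slc16a1 (99.6 and 58.3 CPM, ratio 0.585) and Slc16a3 (0.620), while Slc2a3, at 637 and 583 CPM, was close in both. Below 20 CPM, Pdk2 was at 8.16 CPM in endoderm and 1.41 in other cells and Pdk4 at 0.553 and 3.66.

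The directions were set beside those of the sorted populations, which come from another line and assay. Of the 17 members called in bulk Oct4+ against Pdgfra+ and measured at 20 CPM here, 16 (94.1%) had the same direction in other against endoderm cells, the exception being Eno1, and so did 3963 of 4198 genes (94.4%), so that the members were like the rest of the genes in this respect. For the calls of Oct4+ against DP these were 12 of 12 members and 3633 of 3773 genes (96.3%). In shares of family UMIs, Pfkp stood at 12.3% in endoderm and 49.2% in other cells, Ldhb at 10.9% and 22.3%, Pdk1 at 44.7% and 73.2% and Pdk2 at 23.7% and 1.42%. Of 12 hypoxia and glycolysis regulators, 1 was higher (Txnip, ratio 2.96) and 8 were lower, against 17.5% and 27.9% of all genes. Among the lower were Epas1 (ratio 0.0683) and P4ha1 (ratio 0.107).

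Endoderm cells with Pou5f1 transcripts in the -4OHT library were looked for as a counterpart of the DP sort, though they are defined by RNA and in another line. At the planned cut they were too few to describe. Of 1348 endoderm cells thinned to 5000 UMIs, 6 had at least 2 Pou5f1 UMIs and 1259 had none, and nothing was read from the 11 members past 1.5-fold, since 33.6% of all genes were past it upward and 32.1% downward. At 1 or more UMIs, a cut chosen after seeing the data, 89 cells were positive, and 6 of the members were past the fold, 1 upward and 5 downward, against 7.81% and 12.9% of all genes. The higher member was Slc2a3, at 829 CPM in positive and 519 CPM in negative cells (ratio 1.60, 1.43 to 1.78), and among the lower was Slc2a1 (ratio 0.433, 0.270 to 0.661), with Hk2, Ldhb, Slc16a1 and Dlat between 0.563 and 0.654, of which Dlat had an interval that spans 1. After thinning, a Pou5f1 UMI was found in 20.1% of the other cells of this library and in 0 of 11 feeder cells, against 6.6% of its endoderm cells, and the part of free transcripts in the 89 cells was not tested.

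The feeder class was small, with 11 and 24 cells, but its kinase usage stood apart. Of these cells, 8 and 22 also met the endoderm rule, and the part of doublets or free transcripts in them was not tested. Pdk4 made up 38.9% of kinase UMIs in -4OHT feeders (7 of 18 UMIs, exact 95% interval 17.3 to 64.3) and 64.6% in +4OHT feeders (42 of 65 UMIs, 51.8 to 76.1), against 0.731% to 3.67% in the endoderm classes and in the other cells of the -4OHT library. The 205 other cells of the +4OHT library had Ldhb at 582 CPM and Ldha at 85.2 CPM, so that Ldhb made up 87.2% of their lactate dehydrogenase UMIs, and Slc2a3 at 1241 CPM.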

How the data were processed

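Transcription was measured by bulk RNA-seq in 9 libraries and by droplet single-cell RNA-seq in 2. As raw read counts by gene symbol the authors deposited the bulk libraries, whose preparation was stranded and single-end. How these were aligned and counted (tools, annotation, genome build, strand) is not given in the sources used here, so that overlapping and antisense genes may be mixed. The 35 blank lines closing the table held no value and were left out. For the single cells the authors deposited matrices of raw UMI counts from Cell Ranger 6.1.2 with an mm10 reference.

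Bulk counts were analysed with edgeR 4.0.16 and limma 3.58.1 in R 4.3.3. Genes were filtered by filterByExpr, libraries were scaled by TMM, and 1 model with the group as its term was fitted to all 9 libraries (glmQLFit, glmQLFTest). The SE is the fold change over the square root of F. Alternatives were DESeq2 1.42.0, the study's tool, other scalings and filters, only the 6 libraries compared, the replicate block, and leaving out each library. The fits were tested on simulated data. Libraries of 1 group differed beyond sampling noise, with a chi-square of 16.7 to 36.6 per degree of freedom, and each counted as a replicate. Deviations of same-numbered libraries correlated at 0.271, 0.477 and 0.321 between DP and Pdgfra+, so that these numbers pair the samples, as read from the counts. Isoenzyme ratios added 0.5 reads to each gene. Lengths were exon unions of GENCODE M21 (GRCm38).

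Members and lists were chosen with earlier results of these data known. Members named in full were called in any bulk comparison with a log2 fold change of at least 1 in size, or the highest mean CPM of their role. From the other lists, up to 3 genes per comparison with the largest called change and at least 10 CPM in 1 group were eligible. Eno1 and Gapdh have near-identical copies. UMIs were summed per class and library (Python 3.11.15, numpy 2.4.6, scipy 1.17.1, pandas 2.3.3). Ratios have exact conditional binomial intervals. No doublet caller was run, and the feeder rule came first for the 8 and 22 cells that met both rules. The second Aldoa entry held 29 UMIs against 106113 and was left out.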

Additional observations from a re-analysis of the deposited data

How the results depend on the processing

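The counts of members called in Oct4+ against DP and in Oct4+ against Pdgfra+ stayed within 1.5 times of their values in all 13 alternatives of each. Those in DP against Pdgfra+ did not. The 2 higher members became 4 with no filter on low counts, 4 with DESeq2, 1 with a stricter filter, 1 with only the 6 libraries compared, 5 with the replicate block on the paired numbers, and 0 to 2 when 1 library was left out, with 0 without Pdgfra+ replicate 2 and without DP replicate 3. The 0 lower members became 3 with no filter, 1 with DESeq2, 2 with the replicate block, and 0 to 1 when 1 library was left out, with 1 without DP replicate 1. The cause was not tested. Calls over all genes in this comparison numbered 975, against 1872 with DESeq2, 1892 with no filter, 2536 with the block, and 61 (without Pdgfra+ replicate 3) to 1382 (without DP replicate 1) when 1 library was left out. Over the 65 of 105 member comparisons called in the main or in any alternative fit, 747 alternative values kept direction and side of the threshold, 56 lost the call, 41 gained one, and none reversed. Of the 40 others, called in no fit, 20 changed sign in at least 1 alternative. Oct4+ libraries share only a number with the others. With the replicate block, Pfkp (adjusted p by edgeR 0.0306) and Pfkfb3 (0.0166) gained a call in Oct4+ against DP and Pgam1 (0.0444) in Oct4+ against Pdgfra+, Pfkfb4 (0.0628), Gapdh (0.1) and Mpc1 (0.0596) lost theirs, and no other member changed beyond those named for DP against Pdgfra+. Leaving out scaling factors moved the median of all genes from 0.04 to 0.29 in Oct4+ against DP and from 0.01 to 0.29 in Oct4+ against Pdgfra+. In single cells, the 8 alternatives for +4OHT against -4OHT endoderm gave 13 to 15 members past the fold and the 7 for other against endoderm cells 8 to 12. The split by Pou5f1 gave 11 members past the fold at 2 UMIs, 19 at 3 or more UMIs (1 cell) and 6 at 1 or more UMIs, a cut added after seeing the data, as was leaving out cells with Nanog or Sox2. Depth limits Pdk4 in Pdgfra+ and the kinases in single cells, and the ratios of 1 library against 1 have no replicate check.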
